A study of Homo sapiens with 10 samples.

Results

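Kuramochi is a human ovarian cancer line that the labels describe as epithelial and BRCA2-mutant. It was taken through 1 escalation of olaparib, an inhibitor of PARP enzymes, and 10 populations were profiled by inDrop, a droplet method that counts RNA molecules by unique molecular identifiers (UMIs), with 1 library each. The submitters gave part of the cells a state. In the library grown to confluency in 10 µM olaparib (T10), 1030 of 1986 cells carried a state. The cells described here are the 146 cells of state S3, set against the 688 cells of state S2 of the same library. Together these are 834 of the 8240 cells with a state in the series, which holds 18209 cells. S3 made up 14.2% of the T10 cells with a state (exact binomial 95% interval 12.1 to 16.5), S2 66.8% (63.8 to 69.7) and a further state, S4, 19% (16.7 to 21.6, 196 cells). S3 and S2 cells share the line, the drug, the dose and the library, so no difference between them is a difference between libraries.

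An epithelial cell is held together by desmosomes and tight junctions and carries a scaffold of keratin filaments, with keratin 8 and keratin 18 as the usual pair in simple epithelia. Serous ovarian tumours keep lineage factors of the Müllerian tract such as PAX8 and WT1, and secrete kallikreins and WFDC2 (HE4). Mesenchymal cells use vimentin filaments instead and secrete fibrillar collagens. Wnt, Notch and TGF-beta signals act on the balance between such states in many epithelia. PARP1 detects DNA breaks and is the main target of olaparib, which is toxic to cells that cannot repair breaks by homologous recombination.

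The DNA just upstream of a start listed in RefSeq is shown for 3 genes that mark the difference. FLG had the largest difference in favour of S3. KRT8 is a keratin gene that was higher in S3, and HES1 is a Notch target gene that was lower. Sequences are the 250 bases before the start from RefSeq on GRCh38.p14, 5′ to 3′ on the gene's strand. Capitals mark matches, on either strand, to the AP-1 element TGANTCA, the TATA box TATAAA, the RBPJ core TGGGAA or the dioxin-response core GCGTG.
FLG, chr1:152325240-152325489, minus strand: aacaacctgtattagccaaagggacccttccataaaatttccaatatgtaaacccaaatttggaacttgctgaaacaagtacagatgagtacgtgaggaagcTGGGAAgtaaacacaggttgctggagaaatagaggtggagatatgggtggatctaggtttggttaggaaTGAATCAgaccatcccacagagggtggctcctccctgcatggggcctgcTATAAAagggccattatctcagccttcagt
KRT8, chr12:52926470-52926719, minus strand: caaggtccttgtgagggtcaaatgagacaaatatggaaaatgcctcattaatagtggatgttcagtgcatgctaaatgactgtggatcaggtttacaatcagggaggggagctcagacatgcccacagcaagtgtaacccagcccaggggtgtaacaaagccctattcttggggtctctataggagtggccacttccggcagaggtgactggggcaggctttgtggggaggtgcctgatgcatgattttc
HES1, chr3:194135898-194136147, plus strand: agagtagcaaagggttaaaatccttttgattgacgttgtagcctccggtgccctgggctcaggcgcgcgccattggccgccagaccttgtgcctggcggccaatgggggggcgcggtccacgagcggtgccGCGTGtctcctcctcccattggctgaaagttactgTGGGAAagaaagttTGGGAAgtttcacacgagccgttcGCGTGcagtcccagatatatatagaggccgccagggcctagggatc
The FLG window held 1 AP-1 match, 1 TATA match and 1 RBPJ match. The HES1 window held 2 RBPJ matches and 2 GCGTG matches, and the KRT8 window held none of the 4 motifs. The KRT8 window lies inside the KRT8 gene in the annotation GENCODE 29 (chr12:52897187-52949954). Which start these cells use was not measured, so the window may not be the KRT8 promoter in use. Among 35116 RefSeq windows of this length, 6.57% held an AP-1 match, 10.7% a TATA match, 20.8% an RBPJ match and 32.2% a GCGTG match. The matches describe letters and no binding was measured.

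UMIs were summed over the cells of each state and scaled to CPM, counts per 1000000 UMIs of that state. The S3 cells gave 319166 UMIs and the S2 cells 1436786. The median cell held 2099 UMIs in S3, 1943 in S2 and 2170.5 in S4, and the median mitochondrial share was 8.07% in S3, 8.82% in S2 and 5.79% in S4. Between T10 and T20, 20 cell barcodes occurred in both libraries, 2 of them in cells with a state. With 1 library, and cells that are not replicates, no comparison of the states carries a test. The labels do not say how the states were assigned. If expression was used, the differences below partly restate that choice. Intervals of folds are exact Poisson 95% intervals and cover counting error only.

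The epithelial label held in part. Of 10 epithelial markers, KRT8, KRT18, KRT19, CLDN4 and PAX8 reached 50 CPM in S3 or S2, and EPCAM, the usual surface marker of carcinoma cells, lay at 6.27 CPM in S3 and 7.66 CPM in S2. MUC16 (CA125) was at 0 in both. The summed epithelial markers stood at 3268 CPM in S3, 873 CPM in S2 and 1003 CPM in S4. Of the 10 endothelial markers, 5 were in the matrix, VWF, CDH5 and KDR were at 0 in both states, and the summed level of the list, 539 CPM in S3 and 322 CPM in S2, came from TIE1 in S3 and from EMCN and TIE1 in S2. Immune markers were represented by CD68, at 0 in both states. The summed fibroblast markers stood at 605 CPM in S3 and 1898 CPM in S2, most of it COL3A1 and COL1A1, while PDGFRA and PDGFRB lay between 3.13 and 9.05 CPM. The summed neural list stood at 125 CPM in S3 and 217 CPM in S2 with CHGA at 0, and the summed muscle list at 122 CPM in S3 and 17.4 CPM in S2, of which TNNT2 was 116 CPM in S3 and 3.48 CPM in S2. The part of transcripts from other cells in the differences below was not tested.

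With the settings used here, genes past 2-fold were about as many in each direction. Of 4476 measured genes (at least 50 CPM in S3 or S2 and at least 20 UMIs over both), 226 were at least 2-fold higher in S3 (5.05%) and 223 at least 2-fold lower (4.98%), 10.0% in all. The counts depend on the settings: a pseudocount of 50 CPM gave 98 higher and 85 lower, a minimum of 200 CPM 50 higher and 46 lower, no CPM minimum 291 higher and 515 lower, and cells thinned to 1000 UMIs 295 higher and 388 lower. Differences are given as S3 minus S2 of log2(CPM + 10), which understates folds of low genes. The median difference over all measured genes was 0.03, the median size 0.35, and 65.2% of genes lay within 0.5. A list member low in both states was not measured, so counts and medians of lists describe the measured members and stand for no test. A gene below 50 CPM in 1 state was measured only through the other state, so the sign of its difference was fixed by that entry.

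**Figure D1:**
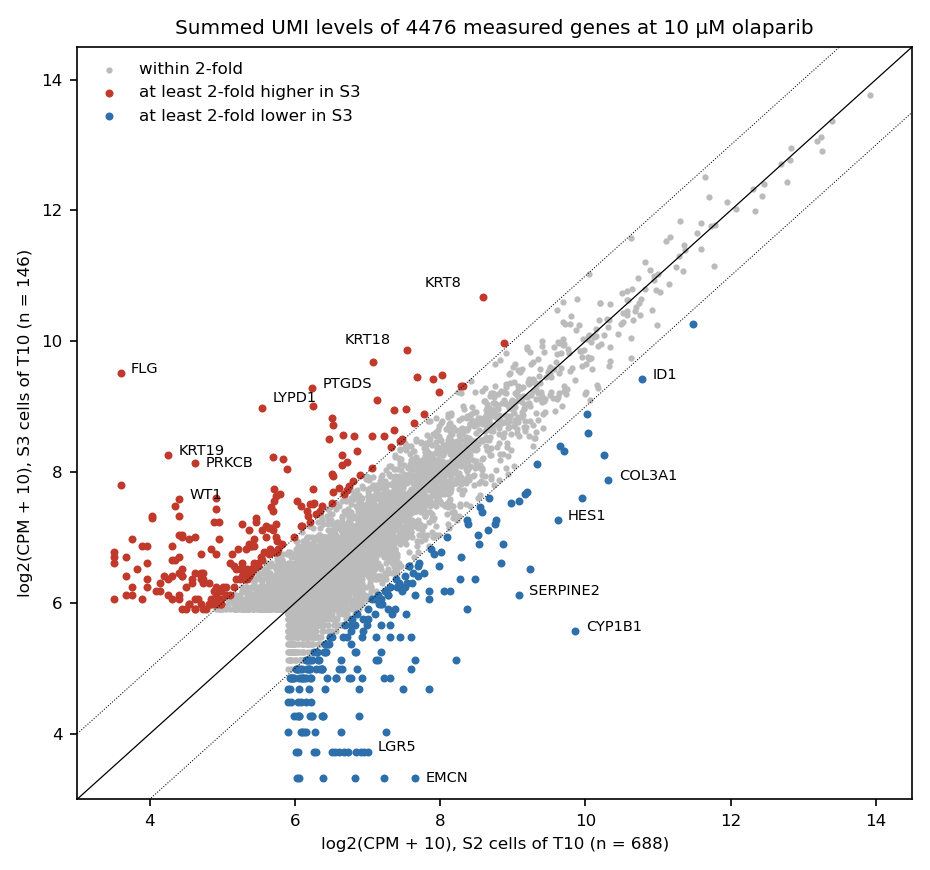
Level of each measured gene, log2(CPM + 10), in S3 cells (vertical axis) against S2 cells (horizontal axis) of T10, 4476 genes. The solid line marks equal levels and the dotted lines a 2-fold difference; FLG stands farthest above the diagonal (721 CPM in S3, 2.09 CPM in S2) and CYP1B1 and EMCN far below it.

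The genes highest in S3 included barrier, keratin and signalling genes. FLG encodes filaggrin, which bundles keratin in the outer epidermis. It stood at 721 CPM (230 UMIs) in S3 and 2.09 CPM (3 UMIs) in S2, a 345-fold ratio (117 to 1686). With every cell thinned to 1000 UMIs, FLG was found in 39.5% of 129 S3 cells and 0.163% of 613 S2 cells; without thinning the shares were 50% and 0.436%. FLG was seen in many S3 cells and in few S2 cells. FAM83A, a scaffold protein of growth factor receptor signalling, had 213 CPM in S3 and 2.09 CPM in S2 (102-fold, 33.5 to 507). Keratin 19 (KRT19) had 298 CPM in S3 and 9.05 CPM in S2 (32.9-fold, 18.3 to 64), and was found in 20.2% of thinned S3 cells and 1.31% of thinned S2 cells.

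The next genes in the order span several roles. PRKCB, protein kinase C beta, had 273 CPM in S3 and 14.6 CPM in S2 (18.6-fold, 11.5 to 31.6). LYPD1, a membrane-anchored protein of the Ly6 family, had 495 CPM in S3 and 36.9 CPM in S2 (13.4-fold, 9.77 to 18.7). PTGDS, which makes prostaglandin D2, had 614 CPM in S3 and 65.4 CPM in S2 (9.39-fold, 7.3 to 12.1). WT1, a transcription factor used to identify serous ovarian tumours, had 182 CPM in S3 and 11.1 CPM in S2 (16.3-fold, 9.25 to 30.4). The metalloreductase STEAP2, the guidance molecule SEMA5B, the netrin receptor UNC5B, the cardiac troponin TNNT2, the RNA-binding protein RBM47, the proton pump subunit ATP6V1B1, the adhesion molecule CADM3 and the synaptic protein RIMS2 complete the 15 highest. These 8 had 87.7 to 169 CPM in S3 and 1.39 to 10.4 CPM in S2, with differences of 3.02 to 3.30. In S2 most of the 15 were near the detection limit, so their folds have wide intervals. In S4, the other state of this library, FLG stood at 2.21 CPM, KRT19 at 2.21 CPM, WT1 at 11 CPM and PTGDS at 104 CPM, all far below S3.

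Epithelial genes were mostly higher in S3. Of 28 on the list, 14 were measured, 8 of these were at least 2-fold higher (5.05% of all measured genes were) and 0 at least 2-fold lower (4.98% were), with a median difference of 1.46 against 0.03 over all genes. These shares of all measured genes are the background for the other list counts in T10 as well. KRT8 had 1623 CPM in S3 and 374 CPM in S2 (4.34-fold, 3.84 to 4.91), and KRT18 had 924 CPM in S3 and 177 CPM in S2 (5.23-fold, 4.41 to 6.21). KRT8 was found in 65.1% of thinned S3 cells and 24.3% of thinned S2 cells. Keratins have many near-identical pseudogene copies, so their counts depend on how the authors treated shared reads. Desmosome genes followed the same direction, with DSP (desmoplakin) at 266 CPM in S3 and 90.5 CPM in S2 and PKP2 (plakophilin 2) at 128 CPM in S3 and 36.9 CPM in S2. CLDN4, a tight junction claudin, had 194 CPM in S3 and 45.2 CPM in S2. SPINT2, an inhibitor of membrane serine proteases, had 705 CPM in S3 and 251 CPM in S2. CD24, a surface glycoprotein, had 68.9 CPM in S3 and 7.66 CPM in S2 from 22 UMIs in S3 and 11 UMIs in S2. The 8 higher genes were keratin, junction and surface protein genes, and EPCAM was low in both states. KRT8, KRT18, DSP and SPINT2 reached 50 CPM in both states. KRT19, PKP2, CLDN4 and CD24 lay below 50 CPM in S2 and were measured only through S3.

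Serous lineage genes split in both directions. Of 10 measured members, 5 were at least 2-fold higher (WT1, SPON1, CLDN16, BCAM and HOXB7) and 3 at least 2-fold lower (MECOM, EMX2 and WFDC2). SPON1, a secreted matrix protein, had 185 CPM in S3 and 20.2 CPM in S2 (9.16-fold, 5.78 to 14.8). CLDN16 had 369.7 CPM in S3 and 91.2 CPM in S2, and the laminin receptor BCAM had 689 CPM in S3 and 196 CPM in S2. PAX8, a Müllerian lineage factor, lay at 201 CPM in S3 and 241 CPM in S2, within 2-fold. In the other direction, MECOM, a transcription factor gene often amplified in ovarian cancer, had 1 UMI in S3 and 164 UMIs in S2 (3.13 CPM in S3 and 114 CPM in S2, 36.4-fold lower, 6.45 to 1448). The homeobox gene EMX2 had 25.1 CPM in S3 and 128 CPM in S2, and WFDC2, the serum marker HE4, had 194 CPM in S3 and 566 CPM in S2. WT1 and SPON1 lay below 50 CPM in S2 and were measured only through S3. MECOM and EMX2 lay below 50 CPM in S3 and were measured only through S2.

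Among kallikreins and secreted protease inhibitors, 12 members were measured, of which 5 were at least 2-fold higher in S3 and 2 at least 2-fold lower (median 0.69). The higher ones were 3 kallikreins, which are secreted serine proteases encoded in the same cluster on chromosome 19, and 2 protease inhibitors. KLK10 had 107 CPM in S3 and 5.57 CPM in S2, KLK6 had 291 CPM in S3 and 41.8 CPM in S2, and KLK5 had 75.2 CPM in S3 and 8.35 CPM in S2. PI3 (elafin) had 103 CPM in S3 and 18.8 CPM in S2, and SLPI had 993 CPM in S3 and 459 CPM in S2. Of these 5, SLPI alone reached 50 CPM in both states, and the others were measured only through S3. The lower members were WFDC2 and TFPI, the inhibitor of tissue factor, at 18.8 CPM in S3 and 98.8 CPM in S2. TFPI was measured only through S2.

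The genes lowest in S3 were led by CYP1B1 and several surface and secreted proteins. CYP1B1, a cytochrome P450 and a classic target of the dioxin receptor, had 37.6 CPM (12 UMIs) in S3 and 920.1 CPM (1322 UMIs) in S2, 24.5-fold lower (14 to 47.5). CYP1B1 was found in 3.1% of thinned S3 cells and 42.7% of thinned S2 cells. EMCN (endomucin), a sialomucin best known from vessels, had 0 UMIs in S3 and 276 UMIs (192 CPM) in S2, at least 20.4-fold lower when S3 is set to a floor of 3 UMIs. S4 cells held EMCN at 159 CPM, near the S2 level, and CYP1B1 at 124 CPM, between S3 and S2. With the same floor, the glycosyltransferase gene MGAT4C (0 CPM in S3, 139.9 CPM in S2) was at least 14.9-fold lower, THSD7A (0 CPM in S3, 104 CPM in S2) at least 11-fold and the sulfotransferase gene GAL3ST3 (0 CPM in S3, 73.8 CPM in S2) at least 7.85-fold. SERPINE2, a secreted protease inhibitor, had 59.5 CPM in S3 and 531 CPM in S2 (8.92-fold lower, 5.67 to 14.9). FAM107A, FILIP1L, VAV3, SFRP1 and LAMA4 each had 1 UMI in S3 against 132 to 171 UMIs in S2. SEMA3D, a secreted guidance molecule, had 15.7 CPM in S3 and 221 CPM in S2, and FAM198B had 25.1 CPM in S3 and 287 CPM in S2.

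**Figure D2:**
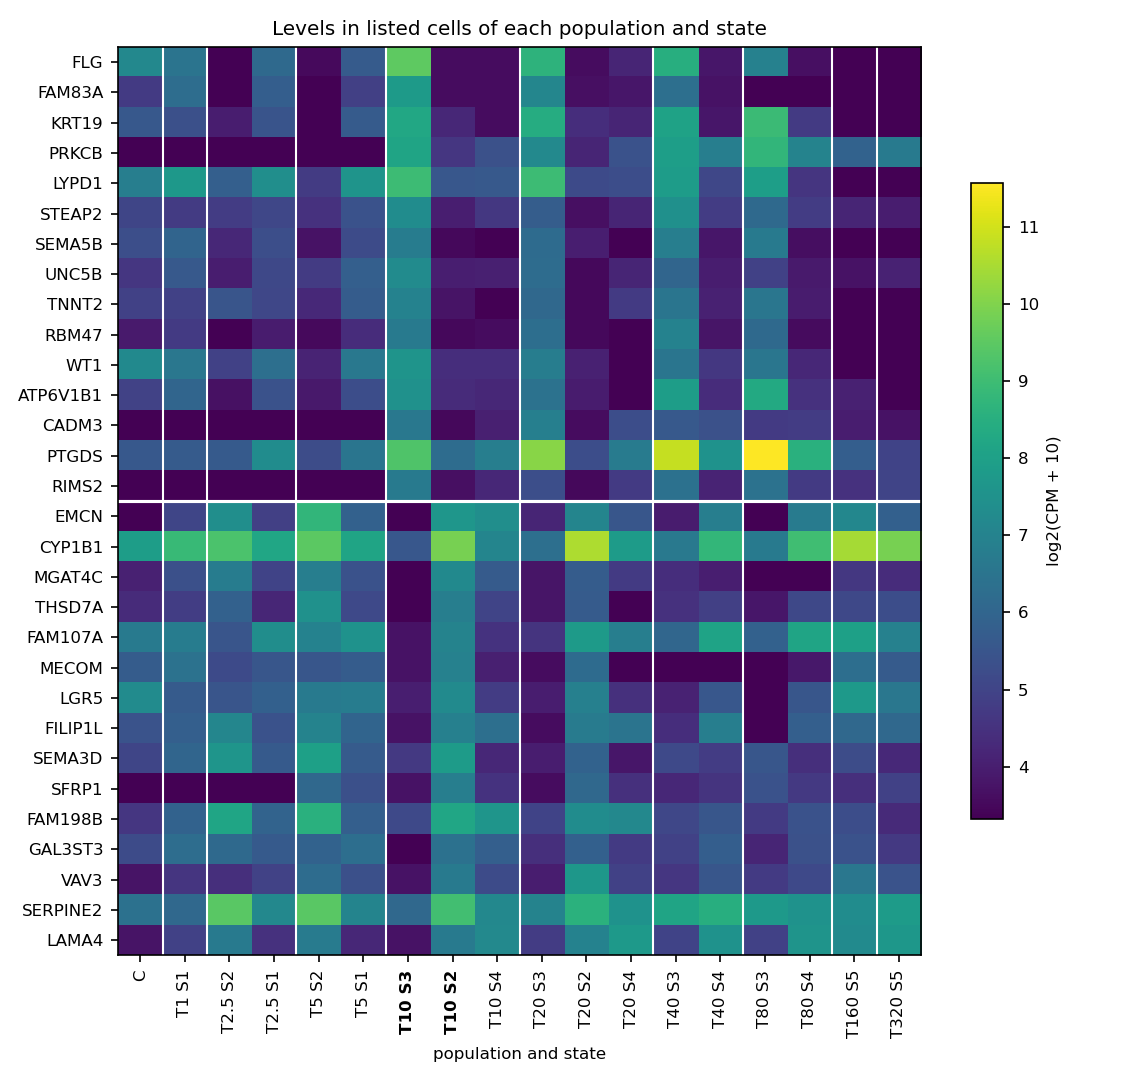
Level, log2(CPM + 10), of the 15 genes highest and the 15 lowest in S3 relative to S2 of T10 (above and below the white line) in the cells of every population and state, in order of dose. The upper block is mostly bright in the S3 columns of T10, T20, T40 and T80, with FAM83A at 0 in T80, and columns of different populations come from different libraries.

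Genes of Wnt, Notch and developmental signalling were lower in S3 where they passed 2-fold. Of 9 measured members, 3 were at least 2-fold lower (4.98% of all measured genes) and 0 at least 2-fold higher (5.05%), with a median of -0.92. HES1, the repressor switched on by Notch through RBPJ, had 144 CPM in S3 and 775 CPM in S2 (5.38-fold lower, 4.01 to 7.39). LGR5, the R-spondin receptor of stem cells in several epithelia, had 6.27 CPM in S3 and 143 CPM in S2 (22.8-fold lower, 6.22 to 189). SFRP1, a secreted Wnt antagonist, had 3.13 CPM in S3 and 105 CPM in S2. LGR5 and SFRP1 lay below 50 CPM in S3 and were measured only through S2, while HES1 reached 50 CPM in both states. The receptor NOTCH3 stood at 56.4 CPM in S3 and 116 CPM in S2, a difference of -0.93, short of the threshold on this scale.

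TGF-beta targets had a median of -0.67 over 10 measured members, with 4 at least 2-fold lower and 0 at least 2-fold higher. ID1 and ID3, inhibitors of basic helix-loop-helix factors that respond to BMP signals, had 677 and 109.7 CPM in S3 and 1749 and 361 CPM in S2. THBS1 (thrombospondin 1) had 28.2 CPM in S3 and 105 CPM in S2. The co-receptor ENG (endoglin) had 1 UMI in S3 and 80 UMIs in S2 (17.8-fold lower, 3.1 to 711). THBS1 and ENG lay below 50 CPM in S3 and were measured only through S2.

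Of the mesenchymal genes, few passed 2-fold in T10. Of 15 measured, 1 was at least 2-fold lower and 0 at least 2-fold higher, with a median of -0.26. TAGLN (transgelin, an actin-binding protein of smooth muscle) had 175 CPM in S3 and 494 CPM in S2. Vimentin (VIM) had 852 CPM in S3 and 1579.9 CPM in S2 (difference -0.88). S4 cells stood above both states for these genes, at 2218 CPM for TAGLN and 2085 CPM for VIM. Of 11 measured genes of fibrillar collagens and their processing, COL3A1 alone passed 2-fold, with 226 CPM in S3 and 1265 CPM in S2 (5.61-fold lower, 4.43 to 7.2), while COL1A1 had 241 CPM in S3 and 479 CPM in S2. Of 10 measured basement membrane genes, LAMA4 (laminin alpha 4) alone passed, at 3.13 CPM in S3, 91.9 CPM in S2 and 137 CPM in S4. Among growth factor binding genes, IGFBP3 had 34.5 CPM in S3 and 128 CPM in S2, and IGFBP5 had 464 CPM in S3 and 1034 CPM in S2.

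Interferon-stimulated genes did not move as a block. Of 17 measured, 1 was at least 2-fold higher and 4 at least 2-fold lower (median 0.39). IFI27 had 141 CPM in S3 and 34.1 CPM in S2. The lower genes, IFI44 (12.5 CPM in S3, 61.2 CPM in S2), IFI6 (65.8 CPM in S3, 163 CPM in S2), ISG15 (25.1 CPM in S3, 64 CPM in S2) and IFI44L (103 CPM in S3, 225 CPM in S2), all lie on chromosome 1, where the median difference was -0.34, as described at the end. The part of the chromosome in these 4 values was not tested. IFI27 lay below 50 CPM in S2, and IFI44 and ISG15 in S3, so each was measured only through the other state. Of 15 measured S100 genes and annexins, S100A10 (674 CPM in S3, 228 CPM in S2), ANXA4 (241 CPM in S3, 80.7 CPM in S2) and S100A16 (172 CPM in S3, 64 CPM in S2) were higher, and S100A2 (122 CPM in S3, 358 CPM in S2) was lower. The chaperone CRYAB (alpha B crystallin) had 107 CPM in S3 and 9.74 CPM in S2 and was the only one of 14 measured heat shock genes past 2-fold. The drug exporter ABCC3 had 122 CPM in S3 and 11.1 CPM in S2.

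The drug target and the repair genes did not pass the threshold. PARP1 had 107 CPM in S3, 219.9 CPM in S2 and 159 CPM in S4, which is 2.06-fold lower in S3 than in S2 (1.45 to 3.03) and a difference of -0.98 on the log2(CPM + 10) scale, just under the threshold in size. PARP1 is also on chromosome 1. Of the 10 stretches of that chromosome described at the end, PARP1 lies in the 1 with a median above 0 (0.09). The part of the chromosome in the PARP1 value was not tested. Of the 7 measured genes of break repair and PARP enzymes, PARP1 included, 0 passed (median 0.03). Proliferation genes were also close: 1 of 6 measured G1/S genes was higher (RRM1, a ribonucleotide reductase subunit, 81.5 CPM in S3 and 32 CPM in S2) and 0 of 8 G2/M genes passed. The table of cells refers to G1 in its name, and the labels do not say whether cycling cells were left out of it. The CDK inhibitor CDKN1A (p21) stood at 21.9 CPM in S3 and 32 CPM in S2, below the level for a measured gene.

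Several further lists had medians near 0 and no member past the threshold. Of 76 measured ribosomal protein genes, 48 nuclear and 13 mitochondrial genes of the respiratory chain, 25 actin and adhesion genes, 16 genes of the unfolded protein response and 16 AP-1 and immediate early genes, 0 passed 2-fold in either direction. Their medians ran from -0.30 for the immediate early genes to 0.22 for the nuclear respiratory genes. Some members lay just under the threshold in size, among them ACTB (0.95), NDUFS6 (0.95), IER3 (-0.94) and SDHD (-0.94).

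T20, the population grown in 20 µM olaparib, is the other library with S3 and S2 cells (149 and 417). There 222 of 4006 measured genes (5.54%) were at least 2-fold higher in S3 and 231 (5.77%) at least 2-fold lower. Of the 226 genes higher in S3 of T10, 147 were measured in T20 and 103 were higher in both, which is 45.6% of the T10 list and 46.4% of the T20 list. Of the 223 lower genes, 165 were measured in T20 and 100 were lower in both, 44.8% of the T10 list and 43.3% of the T20 list. The sign was the same for 145 of the 147 and 161 of the 165, and 0 genes past 2-fold in T10 passed it in the opposite direction in T20. These counts leave out the genes not measured in T20. A gene below 50 CPM in the same state of both libraries, as FLG, FAM83A and WT1 were in S2, entered with its sign fixed. No share of like signs over the 3597 genes measured in both libraries was computed as a background. The cells are different, but the states may have been assigned over both libraries at once, so T20 is a description and not a test. The 15 highest and the 15 lowest genes of T10 were all past 2-fold in the same direction in T20, where 13 and 11 of them met the level for a measured gene. FLG had 389 CPM in S3 and 2.04 CPM in S2 of T20, PTGDS had 1079.8 CPM in S3 and 28.6 CPM in S2, CYP1B1 had 71.1 CPM in S3 and 1494 CPM in S2, HES1 had 84.9 CPM in S3 and 461 CPM in S2, and PARP1 had 98.7 CPM in S3 and 205 CPM in S2.

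**Figure D3:**
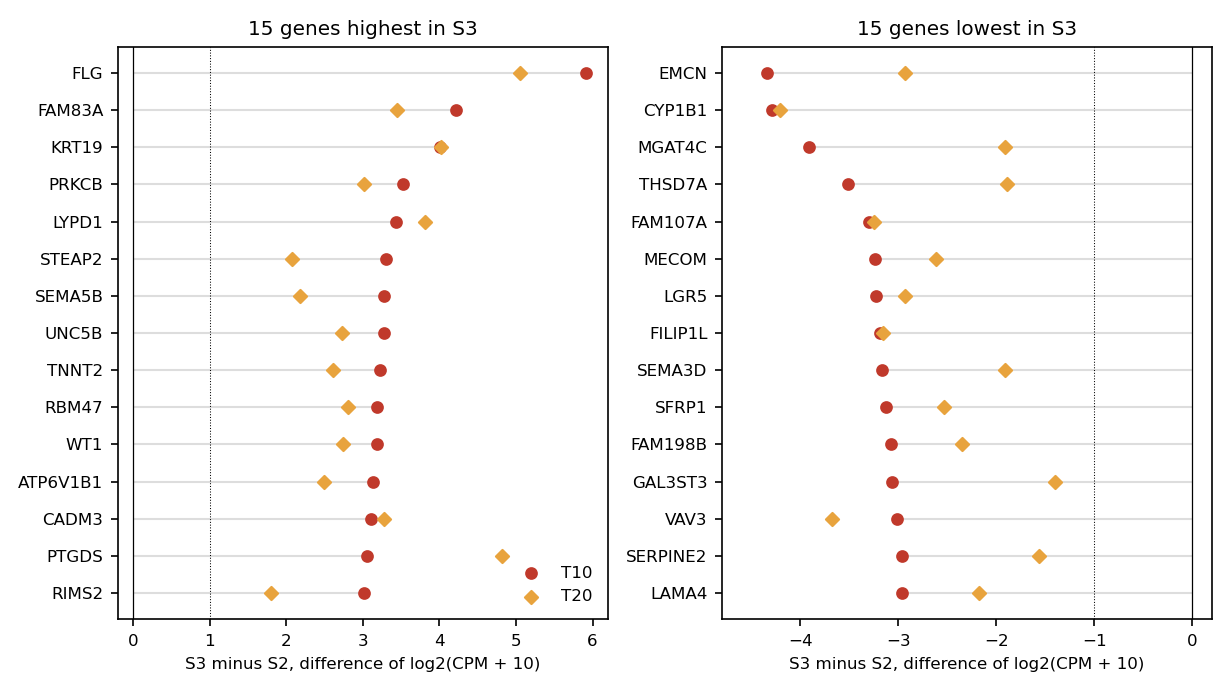
Difference of log2(CPM + 10), S3 minus S2, for the 15 genes highest in S3 of T10 (left) and the 15 lowest (right), in T10 (circles) and T20 (diamonds), with a dotted line at 2-fold. In T20 the 15 highest lie between 1.80 and 5.05 and the 15 lowest between -4.21 and -1.40.

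Some lists had other values in T20. Basement membrane genes had 1 of 10 measured members at least 2-fold lower in S3 of T10, with a median of -0.28, against 6 of 10 and -1.24 in T20. Mesenchymal genes had 1 of 15 lower and 0 higher in T10, with a median of -0.26, against 5 of 15 lower, 1 higher and -0.61 in T20. Interferon-stimulated genes had a median of 0.39 in T10, with 4 of 17 lower, against -0.38 in T20, with 8 of 22 lower. ISG15 in T20 had 53.3 CPM in S3 and 447 CPM in S2. GDF15, a stress-induced cytokine, had 3.13 CPM in S3 and 54.3 CPM in S2 of T10 and 53.3 CPM in S3 and 33.4 CPM in S2 of T20. These differences between the libraries were not tested.

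Single cells of T10 were placed by the genes that passed 2-fold in T20. No T10 UMI entered that choice, but T10 cells may have shaped the T20 state labels if both libraries were assigned together. The 222 genes higher in S3 of T20 made up 5.25% of the UMIs of the median S3 cell of T10 (range 2.81 to 7.98), 2.25% of the median S2 cell (0.611 to 6.32) and 2.55% of the median S4 cell. The 231 lower genes made up 2.02% in S3, 4.86% in S2 and 4.65% in S4. The higher set outweighed the lower set in 142 of 146 S3 cells (97.3%), 83 of 688 S2 cells (12.1%) and 15 of 196 S4 cells (7.65%). The ranges of the states overlapped: 5 S2 cells and 3 S4 cells reached the median S3 cell, and 141 S3 cells lay above the 90th percentile of S2.

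**Figure D4:**
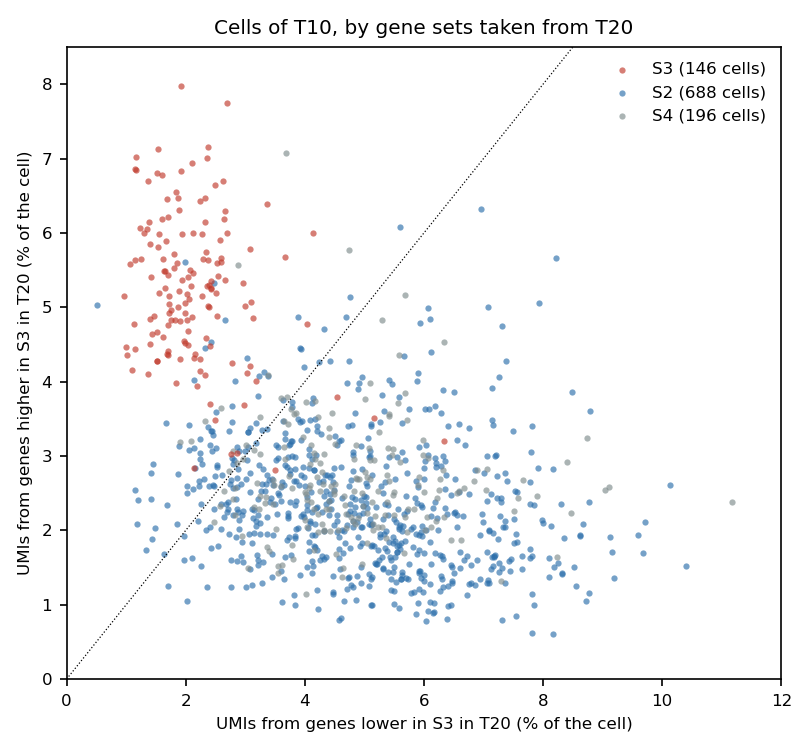
Each T10 cell with a state, by the percent of its UMIs from genes higher in S3 of T20 (vertical axis) and from genes lower in S3 of T20 (horizontal axis); the dotted line marks equal shares. S3 cells (red) gather at the upper left, with 142 of 146 above the line, and S2 (blue) and S4 (grey) cells share the lower right.

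S3 cells were found in 4 of the 10 libraries, at 14.2% of the cells with a state in T10, 23.3% in T20, 24.1% in T40 and 7.91% in T80, while S2 held 0 of the 918 cells with a state in T40 and 0 of the 910 in T80 (exact upper limits 0.401% and 0.405%). There S3 was set beside S4. Of the 15 genes highest in S3 of T10, 14 were at least 2-fold higher in S3 than in S4 of T40, where 5.14% of measured genes were, and 12 in T80, where 8.37% were. Of these 15, 14 were measured in T40 and 12 in T80. The exceptions included FAM83A, which had 0 UMIs in both states of T80. Of the 15 lowest genes, measured or not, 6 were at least 2-fold lower in S3 of T40 and 8 in T80. These counts include genes below the level for a measured gene: LGR5 in T40, and THSD7A, LGR5, FILIP1L and GAL3ST3 in T80. Only 6 and 5 of the 15 were measured there. The sign was the same as in T10 for 12 of the 15 in T40 and 11 in T80. In T80 SEMA3D, below the level for a measured gene, was past 2-fold in the opposite direction (36.3 CPM in S3, 11.5 CPM in S4). Over all measured genes, 4.48% were at least 2-fold lower in T40 and 5.97% in T80. These shares leave out genes that were not measured, unlike the counts of 6 and 8. SERPINE2 was measured in both and did not pass. It had 273 CPM in S3 and 346 CPM in S4 of T40, and 206 CPM in S3 and 172 CPM in S4 of T80. PTGDS had 1811 CPM in S3 and 172 CPM in S4 of T40, and 3013 CPM in S3 and 363 CPM in S4 of T80.

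Along the escalation, FLG had 133 CPM in the untreated cells with a state, 79.8 CPM in S1 of T1, 60 CPM in S1 and 0 CPM in S2 of T2.5, and 41.2 CPM in S1 and 1.56 CPM in S2 of T5. WT1 had 139 CPM in untreated cells, 89.5 CPM in S1 of T5 and 7.81 CPM in S2 of T5. KRT19, KLK6 and LYPD1 were also present in untreated cells (38.3, 54.2 and 105 CPM). FLG, KRT19, WT1, KLK6 and LYPD1 stood at 0 in the cells with a state of T160 and T320. PRKCB, CADM3 and RIMS2 stood at 0 from the untreated cells to T5. Among the lower genes, EMCN stood at 0 in untreated cells and had 157 CPM in S2 of T2.5 and 415 CPM in S2 of T5, and COL3A1 had 32.8 CPM in untreated cells, 2539 CPM in S2 of T2.5 and 2873 CPM in S2 of T5. CYP1B1 had 232 CPM in untreated cells and 1396 CPM in T160. S3 cells of T10 held EMCN and MECOM below their levels in S2 cells of T2.5, T5, T10 and T20. These levels come from different libraries, and a level of 0 may reflect how the authors filtered genes.

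The differences were unevenly spread over the chromosomes, an analysis chosen after the values were seen. On chromosome 1 the median difference was -0.34 over 461 measured genes, and 24.3% of its genes were above 0. There 15 genes (3.25%, against 5.05% of all genes) were at least 2-fold higher and 52 (11.3%, against 4.98%) at least 2-fold lower. Chromosome 1 held 7.66% of UMIs in S3, 9.32% in S2 and 7.8% in S4. On chromosome 16 the median was 0.48 over 179 genes, and 79.9% were above 0. Of its genes, 15 (8.38%, against 5.05% of all genes) were at least 2-fold higher and 4 (2.23%, against 4.98%) at least 2-fold lower. The share of higher genes was larger on chromosomes 8 (9.71%) and 18 (11.1%), whose medians were 0.03 and 0.19. Chromosome 16 held 3.02% of UMIs in S3, 2.36% in S2 and 2.43% in S4. The medians of the other nuclear chromosomes ran from -0.21 on chromosome 13 to 0.20 on chromosome 22. In stretches of 20 megabases with at least 15 measured genes, 9 of 10 on chromosome 1 had a median below 0 (from -0.76 to 0.09) and 5 of 5 on chromosome 16 one above 0 (0.05 to 0.58). In T20 the chromosome medians were -0.35 and 0.46, and the same 9 of 10 and 5 of 5 stretches held. Single stretches of other chromosomes had medians of like size: the first 20 megabases of chromosome 11 had 0.52 in T10 and 0.70 in T20, and those of chromosome 17 had 0.31 in T10 and 0.87 in T20. In T40 and T80, where S3 was set beside S4, chromosome 1 had medians of 0.07 and 0.22 and chromosome 16 of 0.24 and 0.28. Chromosome 2 had the largest medians of the nuclear chromosomes there (0.41 and 0.51), and in T80 chromosomes 3 (0.31) and 18 (0.34) also exceeded chromosome 16. For S4 minus S2 in T10, which uses the same S2 cells, the median was -0.31 on chromosome 1 and -0.01 on chromosome 16. Chromosomes 2 (-0.35) and 17 (-0.31) had S4 minus S2 medians of like size to chromosome 1. No DNA was measured, and what moves with these medians was not tested.

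**Figure D5:**
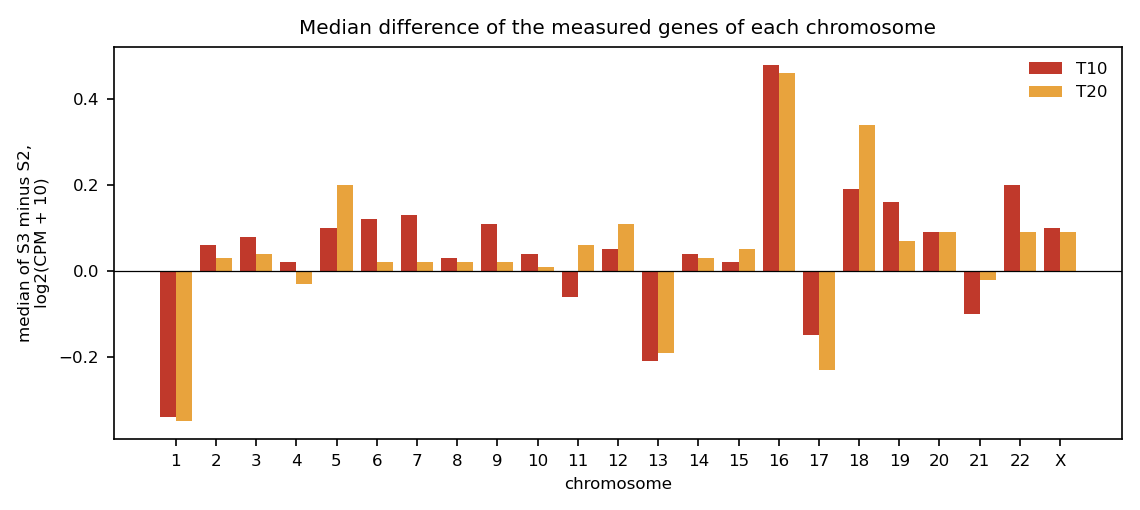
Median of S3 minus S2, log2(CPM + 10), over the measured genes of each chromosome, in T10 (left bar of each pair) and T20 (right bar). Chromosome 1 (-0.34 in T10, -0.35 in T20) and chromosome 16 (0.48 and 0.46) have the tallest bars.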

How the data were processed

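Single-cell libraries were made by inDrop from 1 population per dose. The deposited matrix holds raw UMI counts for 12373 genes. The deposited table of cells gives a state, counts of UMIs and genes, and the mitochondrial share as a fraction. The submitters' processing notes name hg38, GRCh38 and Seurat 2.3.2. Neither labels nor headers name an aligner, a counter, its strand setting, cell filters or how states were assigned, so antisense and duplicated genes stay uncertain. Cells of T10 were matched to the matrix by name and those of T40 by barcode, with identical UMI totals. Doublets were not called and may remain, and no cell with a state was removed.

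Counts were summed per library and state with Python 3.11.15, numpy 2.4.6, scipy 1.17.1 and pandas 2.3.3. A gene was measured at 50 CPM or more in 1 of the states compared and 20 UMIs or more over both, and passed at a difference of 1 in log2(CPM + 10). No test was possible, because each comparison has 1 library. Genes at 0 were set to a floor of 3 UMIs for a bound. On simulated Poisson counts, drawn without variation between cells, the steps recovered most genes given the largest known rise. Such counts cannot test the effect of variation between cells. Named were the 15 highest and 15 lowest differences, up to 4 members of each of 36 pathway and 6 marker lists with the largest differences, and PARP1, CDKN1A, VIM and WT1. Other members are named where a list's count needs them. The comparison, lists and rules were chosen with earlier results of these data known. Gene positions are from GENCODE 29. Of 33 genes looked up for promoters, 23 were counted as matched in RefSeq. Entries on chromosome 8, where FAM83A, RIMS2 and SFRP1 lie, were skipped whether or not RefSeq held them. Scaling alternatives used edgeR 4.0.16 and DESeq2 1.42.0 in R 4.3.3.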

Additional observations from a re-analysis of the deposited data

How the results depend on the processing

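Under all alternatives tried, the 15 highest and 15 lowest genes stayed past 2-fold in their direction, with the smallest sizes, 1.42 and 1.31, at a pseudocount of 50 CPM. They were counted whether or not they met the level for a measured gene. Changes of the CPM minimum therefore could not alter the size of any named gene. The genes were chosen as the extremes of these data, so their staying past 2-fold is no test. The pseudocount of 50 CPM lowered the counts to 98 higher and 85 lower genes and the counts shared with T20 to 55 and 48. A minimum of 200 CPM, which left 1050 measured genes, gave 50 higher and 46 lower. With no CPM minimum 515 genes were lower, and with cells thinned to 1000 UMIs 388 were lower, 182 of them on the main list of 223. Other scalings, the mean of per-cell CPM, a pseudocount of 1 CPM and leaving out the 10% of cells with the most UMIs (14 S3 and 62 S2 cells) moved the counts by less than 1.5 times, as did subtracting each chromosome's median (209 higher, 215 lower), an alternative added after the data were seen. The medians of 39 lists under 10 alternatives gave 376 values, each over at least 3 measured genes. Of these, 373 stayed inside an interval set by the spread of the list's members. That interval is wide for short lists, so staying inside it says little about them. NF-kB targets (4 genes) moved to -0.79 with thinned cells, and neural markers (3 genes) to -1.68 at a pseudocount of 1 CPM and -1.54 without mitochondrial and ribosomal protein genes in the total. Of 1700 values of named genes, 108 moved and 0 called values reversed. The cause of these moves was not tested. No paired analysis was possible because each population has 1 library. The S3 sum of 319166 UMIs limits precision: 1 UMI there is 3.13 CPM.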

Other observations

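Further genes, chosen after their values were seen, add to the picture of S3. Fibronectin (FN1), a matrix glycoprotein often used as a mesenchymal marker, was not among the lower genes, at 5825 CPM in S3 and 3211 CPM in S2 of T10 and at 6826 CPM in S3 and 1875 CPM in S2 of T20. Among single genes picked for their values, FGFR2 had 141 CPM in S3 and 19.5 CPM in S2, FGFR3 had 87.7 CPM in S3 and 5.57 CPM in S2, and NRP2, a co-receptor for semaphorins and VEGF, had 150.4 CPM in S3 and 11.1 CPM in S2. ITGB4, the integrin of hemidesmosomes, had 59.5 CPM in S3 and 2.78 CPM in S2. The clock-related repressor BHLHE41 had 815 CPM in S3 and 125 CPM in S2. The MHC class II chaperones CD74 and HLA-DMA had 56.4 and 94 CPM in S3 and 4.87 and 11.1 CPM in S2, from 18 and 30 UMIs in S3.

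Lower in S3 among genes picked in the same way were WLS, which carries Wnt proteins out of the cell (109.7 CPM in S3, 457 CPM in S2), the Hedgehog effector GLI3 (28.2 CPM in S3, 136 CPM in S2), the homeobox gene MEIS1 (21.9 CPM in S3, 106 CPM in S2), the transcription factor EBF1 (34.5 CPM in S3, 184 CPM in S2) and the lipid phosphatase PLPP3 (185 CPM in S3, 979 CPM in S2). Among collagens of cartilage and fibril surfaces, COL2A1 was at 9.4 CPM in S3 and 56.4 CPM in S2, COL9A2 at 3.13 CPM in S3 and 80.7 CPM in S2, and COL14A1 at 6.27 CPM in S3 and 57.8 CPM in S2, while COL9A3, at 78.3 CPM in S3 and 123 CPM in S2, did not pass 2-fold. The adhesion protein gene TGFBI had 3.13 CPM in S3, 8.35 CPM in S2 and 884 CPM in S4.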
